A study of Mus musculus with 8 samples.

Results

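Thioredoxins and antioxidant enzymes of the male germ line were followed by 10 genes taken by name. The rule did not use their measured values, but earlier results of these data were known when the genes were chosen. They are Txndc2, Txndc8, Txnrd3 and Gpx4, whose products are abundant in or restricted to spermatids and sperm, and Prdx4, Prdx6, Sod1, Sod2, Gsr and Cat, which encode antioxidant enzymes found in many tissues. Of the 10, 9 had probe sets, 24 of the 45037 probe sets on the array, among 18193 genes with a probe set of their own. Prdx6 was matched by no probe set here and was not analysed.

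Late spermatocytes, which are in meiotic prophase, and round spermatids, the haploid cells that follow, were isolated from testes of wild type (Hr6b+/+) and Hr6b knockout (Hr6b-/-) mice. HR6B is a ubiquitin-conjugating enzyme encoded by Ube2b, and the study asked how its loss changes gene expression during and after meiosis. All mice were males of 4 to 5 weeks on the FVB background after more than 20 generations of backcrossing, and both genotypes came from crosses of the same generation that were set up at the same time, so that the controls were not littermates of the knockout mice. The deletion was present in every cell of the knockout mice, including the Sertoli cells that support the germ cells. Testes were dissociated with collagenase and trypsin, and cells were separated by sedimentation at unit gravity and in Percoll, with a stated purity above 80% that did not differ between genotypes. Each of the 4 groups has 2 Affymetrix Mouse Genome 430 2.0 arrays, 8 in all, and the number of mice behind an array is not given in the sources used here. The p-values therefore measure only the spread between these arrays, which may be partly technical.

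Signal is the deposited log2 value brought back to the linear scale, and it reached 100 for 33.2% to 35.4% of the probe sets, depending on the array. The lead Ube2b probe set fell from 3102 ± 349 to 828 ± 6.72 in spermatocytes and from 4606 ± 8.47 to 1006 ± 78.1 in spermatids (SD, n = 2 arrays), as the genotype labels state. Of 15 late spermatocyte markers, 13 had a signal of at least 100 on every array, also in spermatids, and 10 were lower and 3 higher in wild type spermatids than in wild type spermatocytes. Their summed signal was 75001 to 76517 in wild type and 72457 to 77803 in knockout spermatocytes, with 1 of them higher in the knockout. This was Spag6, by a log2 difference of 1.15, which also rose by 6.09 between the stages in wild type. The sum of these markers was 53812 to 54288 in wild type and 46108 to 49036 in knockout spermatids, with 4 lower. All 15 measured round spermatid markers were higher in wild type spermatids. Their summed signal was 12606 to 16599 on the wild type and 31846 to 42291 on the knockout spermatocyte arrays, and 9 of the 15 were higher and none lower in knockout spermatocytes, with a median log2 difference of 1.80. It was 176768 to 180291 in wild type and 215613 to 219333 in knockout spermatids, where 2 of the 15 were higher. The summed signal of 18 Sertoli cell markers was 8297 to 10834 in wild type and 8114 to 10616 in knockout spermatocytes, and 1115 to 1231 in wild type and 1780 to 1804 in knockout spermatids. No Sertoli cell marker was called between the genotypes in spermatocytes, and 5 were higher in knockout spermatids, namely Aard, Cst12, Cldn11, Inha and Amhr2, by log2 differences of 2.17, 1.80, 1.14, 1.07 and 0.85. The brightest in wild type spermatocytes were Clu at a mean signal of 2385, Ctsl at 1728, Aard at 1643, Amhr2 at 1194 and Cst12 at 1072, and 6 of the 18 were below 100 on every array. Of all probe sets, 26% were higher and 27.3% lower in wild type spermatids than in wild type spermatocytes. Between the genotypes, 1.18% were higher and 0.413% lower in knockout spermatocytes, and 4.83% were higher and 9.63% lower in knockout spermatids.

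Hydrogen peroxide and lipid peroxides are reduced in the cell by peroxiredoxins and glutathione peroxidases, which draw electrons from thioredoxin, glutathione and, in the end, NADPH. Superoxide dismutases supply peroxide by converting superoxide, and catalase breaks peroxide down without a reductant. In the testis the same thiol chemistry is also used to build sperm, since disulfide bonds harden the protamine-packed nucleus, the mitochondrial capsule and the fibrous sheath of the tail while the cell loses most of its cytoplasm.

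The sperm thioredoxins rose most between the stages. Txndc2, on chromosome 17, encodes a thioredoxin of the fibrous sheath, also called Sptrx-1. Its signal was 173 and 110.3 on the wild type spermatocyte arrays, 395 and 299 on the knockout spermatocyte arrays, 5981 and 5737 on the wild type spermatid arrays, and 7910 and 8672 on the knockout spermatid arrays. Txndc8, on chromosome 4, encodes Sptrx-3, a thioredoxin associated with the Golgi and the developing acrosome. Its signal was 151 and 91.5 in wild type spermatocytes, 330.1 and 289 in knockout spermatocytes, 6378 and 6874 in wild type spermatids, and 6847 and 7423 in knockout spermatids. All spermatid arrays lay far above all spermatocyte arrays for both genes. In wild type, spermatids exceeded spermatocytes by a log2 difference of 5.41 for Txndc2 (SE 0.20, 42.4-fold, adjusted p = 7.35e-09 from limma) and of 5.82 for Txndc8 (SE 0.20, 56.4-fold, adjusted p = 4.41e-09). Only 0.7% and 0.27% of all probe sets rose more than these. In the knockout the stage differences were 4.59 and 4.53.

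Txnrd3 and Gpx4 were already high in spermatocytes and rose by less. Txnrd3, on chromosome 6, encodes the thioredoxin-glutathione reductase of the testis, a selenoprotein. Its signal was 8725 and 7681 in wild type spermatocytes, 8224 and 7679 in knockout spermatocytes, 10868 and 10846 in wild type spermatids and 8971 and 9148 in knockout spermatids. The spermatid arrays lay above the spermatocyte arrays in both genotypes, and the log2 difference was 0.41 in wild type (SE 0.11, adjusted p = 0.0124 from limma) and 0.19 in the knockout (adjusted p = 0.175). The wild type call was lost without replicate 2 of the wild type spermatocytes (adjusted p = 0.0863). Gpx4, on chromosome 10, encodes the selenoprotein that reduces lipid peroxides and later forms part of the mitochondrial capsule of sperm. Its signal was 13301 and 12481 in wild type spermatocytes, 13858 and 13047 in knockout spermatocytes, 19322 and 18821 in wild type spermatids and 19881 and 19572 in knockout spermatids, against a highest signal of 33756 for any probe set. The stage difference of Gpx4 was 0.57 in wild type (SE 0.11, adjusted p = 0.00125) and 0.55 in the knockout (adjusted p = 0.00131), and its second probe set gave 0.71 and 0.75.

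Among the enzymes found in many tissues, Prdx4 rose most. It lies on the X chromosome and encodes a peroxiredoxin of the endoplasmic reticulum and the secretory pathway. Its signal was 288 and 355 in wild type spermatocytes, 554 and 492 in knockout spermatocytes, 5978 and 5225 in wild type spermatids and 8946 and 10760 in knockout spermatids. Every group stood apart from the one below it, and spermatids exceeded spermatocytes by 4.13 in wild type (SE 0.15, 17.5-fold, adjusted p = 5.86e-09 from limma). Gsr, on chromosome 8, encodes the reductase that regenerates glutathione. Its signal was 60.4 and 73.1 in wild type spermatocytes, 54.7 and 65.9 in knockout spermatocytes, 175 and 168 in wild type spermatids and 341 and 348 in knockout spermatids. Thus only the 4 spermatid arrays reached 100, and the stage difference was 1.37 in wild type (SE 0.14, adjusted p = 9.71e-06) and 2.52 in the knockout (adjusted p = 7.87e-08).

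The superoxide dismutases and catalase took other courses. Sod1, on chromosome 16, encodes the cytosolic enzyme that carries copper and zinc. Its lead probe set had a signal of 1437 and 1583 in wild type spermatocytes, 1169 and 1493 in knockout spermatocytes, 4072 and 4134 in wild type spermatids and 4972 and 5664 in knockout spermatids, a stage difference of 1.44 in wild type (SE 0.14, adjusted p = 8.29e-06 from limma). Sod2, on chromosome 17, encodes the mitochondrial enzyme that carries manganese. Its signal was 5369 and 5208 in wild type spermatocytes, 5635 and 5639 in knockout spermatocytes, 5687 and 5507 in wild type spermatids and 4362 and 4701 in knockout spermatids. The knockout spermatids were the lowest arrays, and the stage difference of Sod2 was 0.08 in wild type (95% confidence interval -0.16 to 0.32) and -0.32 in the knockout (adjusted p = 0.0270), and both depended on the scaling. In the knockout the sign turned, to 0.13 after cyclic loess normalization and 0.29 with equal medians of expressed autosomal probe sets, and in wild type Sod2 was called higher under the same settings (0.28, adjusted p = 0.0430, and 0.45, adjusted p = 0.00451). Cat, on chromosome 2, encodes catalase of the peroxisome. Its signal was 45.2 and 51.7 in wild type spermatocytes, 47.7 and 58.2 in knockout spermatocytes, 28.2 and 25.4 in wild type spermatids and 20.3 and 30.5 in knockout spermatids, below 100 on every array. It was lower in wild type spermatids by a log2 difference of -0.85 (SE 0.19, adjusted p = 0.00306). There 13 of the 18 Sertoli cell markers were lower too, against 27.3% of all probe sets. Whether catalase RNA came from germ cells or from such cells was not tested.

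**Figure D1:**
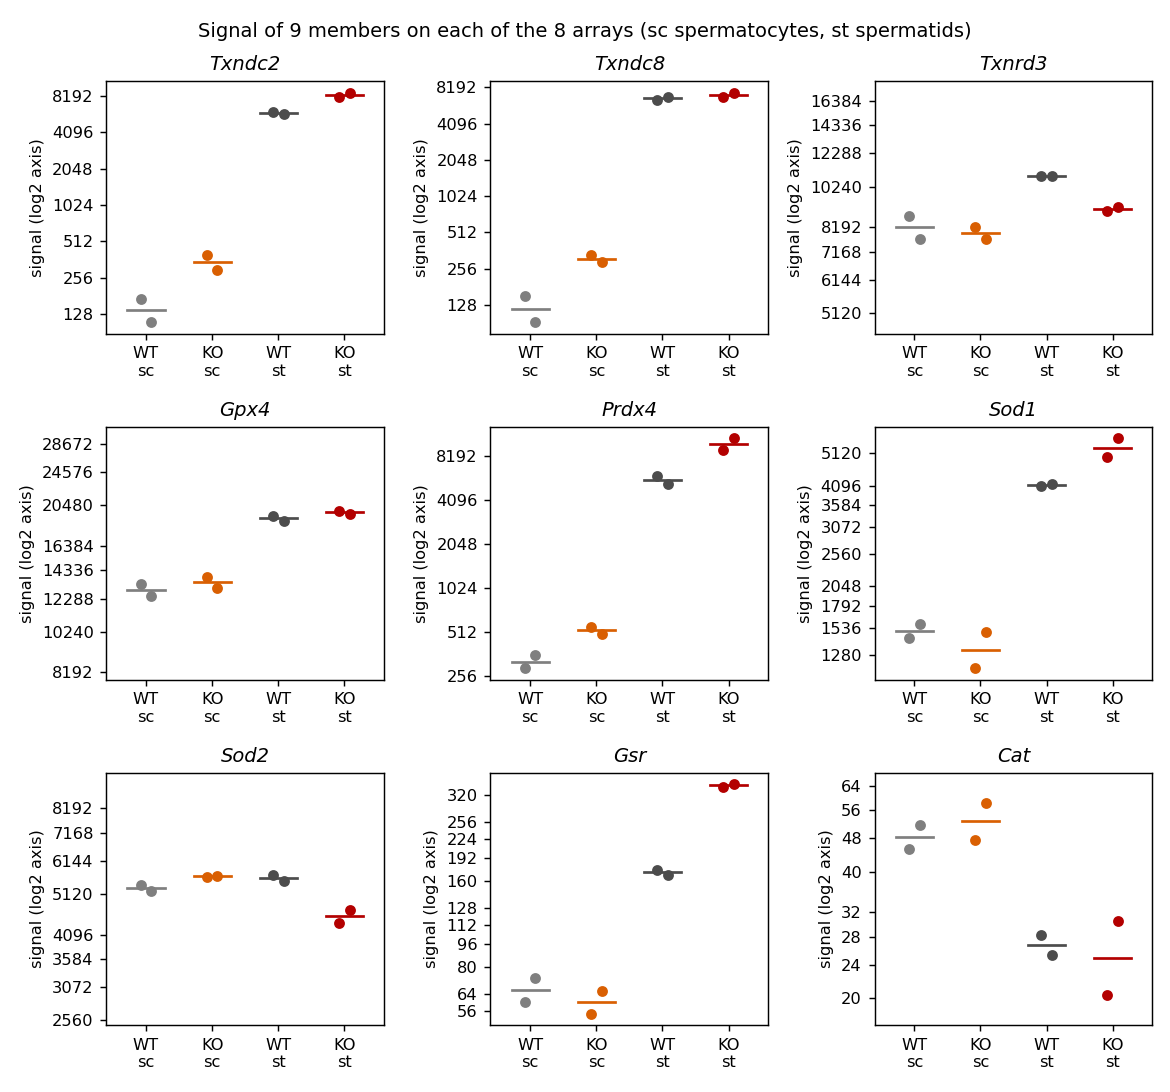
Signal of the lead probe set of each measured gene on each array, on log2 axes whose range differs between panels; points are arrays, bars are the group means of the log2 values, WT is wild type, KO is Hr6b knockout, sc is spermatocytes and st is round spermatids. Txndc2, Txndc8 and Prdx4 rise by more than an order of magnitude from spermatocytes to spermatids, Gpx4 and Txnrd3 start high, and Cat falls.

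Between wild type spermatocytes and spermatids, 7 of the 9 genes were higher, 1 was lower and 1 missed the threshold of 0.05 on the adjusted p of limma, in a comparison that called 53.3% of all probe sets. Their median log2 difference was 1.37, against 0.10 over all probe sets. In the knockout, 6 were higher and 2 lower, with a median of 2.01 against 0.14 and with 63% of all probe sets called. The genes found in many tissues spanned 1.92% (Prdx4) to 81.21% (Cat) of all probe sets in the share that rose more than they did in wild type. The median of the expressed autosomal probe sets fell by 0.37 from spermatocytes to spermatids in wild type and by 0.61 in the knockout. With these medians made equal, Txnrd3 had a stage difference of 0.78 in wild type and 0.79 in the knockout, Gpx4 0.94 and 1.16, and Cat -0.48 and -0.48, all called.

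**Figure D2:**
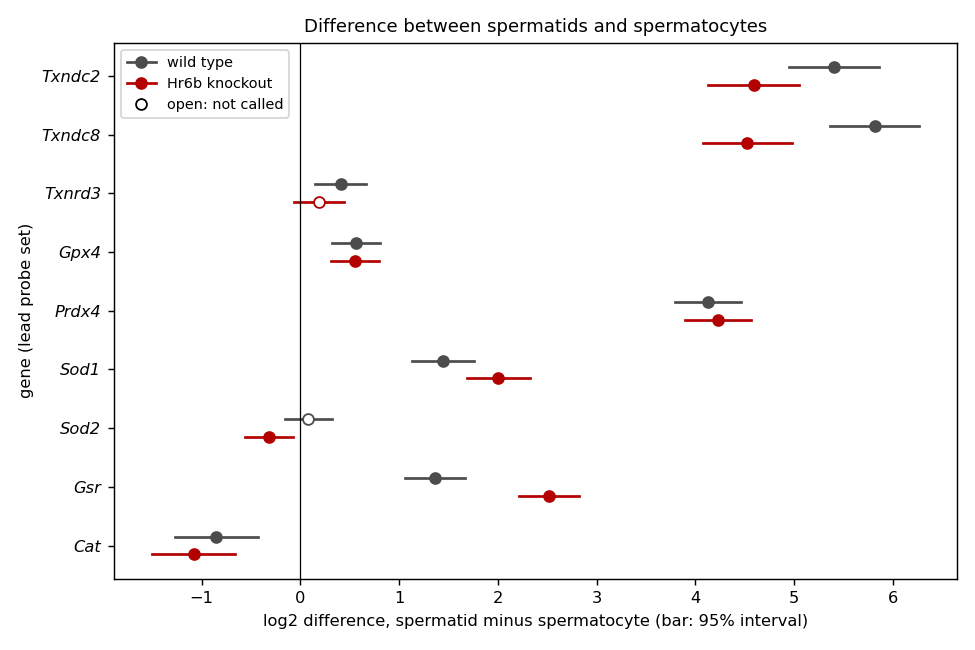
Log2 difference, spermatids minus spermatocytes, of the lead probe set of each gene in wild type and in the knockout, with 95% confidence intervals from limma. Txndc8 and Txndc2 have the largest values in both genotypes, Sod2 lies at 0.08 in wild type and -0.32 in the knockout, and Cat is negative in both. Open points were not called.

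The sequence before the transcription start came from the RefSeq (GRCm38.p6) promoter sequences used here. These held 8 of the 10 members, all but Gsr and Prdx6, with 12 windows of 250 bases in all. Of these, 6 lie wholly inside the annotated span of their gene, before an internal start: both of Txndc2, 3 of the 4 of Gpx4 and that of Prdx4. The windows of Txndc8, the gene with the largest stage rise, Sod1, the member that holds most of the motifs searched, and Cat, which fell, are shown 5′ to 3′ on the gene's strand, with CCAAT and TGACG in capitals on either strand (ATTGG and CGTCA on the other). The Txndc8 window is chr4:58009136-58009376 on the minus strand, without the 9 bases nearest the start, that of Sod1 is chr16:90220512-90220761 on the plus strand, and that of Cat is chr2:103485154-103485403 on the minus strand.
Txndc8: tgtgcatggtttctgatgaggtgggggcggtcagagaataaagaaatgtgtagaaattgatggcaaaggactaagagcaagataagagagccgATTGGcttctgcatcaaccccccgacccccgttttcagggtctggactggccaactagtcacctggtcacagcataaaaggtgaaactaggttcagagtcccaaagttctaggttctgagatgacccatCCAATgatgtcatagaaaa
Sod1: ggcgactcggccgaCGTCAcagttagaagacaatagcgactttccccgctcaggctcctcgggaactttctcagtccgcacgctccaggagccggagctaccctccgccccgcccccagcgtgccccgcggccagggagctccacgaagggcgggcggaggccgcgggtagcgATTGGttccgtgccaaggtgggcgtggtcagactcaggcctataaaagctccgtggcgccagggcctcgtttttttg
Cat: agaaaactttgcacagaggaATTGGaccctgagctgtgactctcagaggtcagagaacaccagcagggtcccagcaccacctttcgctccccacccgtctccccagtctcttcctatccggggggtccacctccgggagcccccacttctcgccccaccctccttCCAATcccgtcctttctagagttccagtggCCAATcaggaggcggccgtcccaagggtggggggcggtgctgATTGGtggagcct

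On both strands, CCAAT was found in the windows of 6 members, Txndc8, Gpx4, Prdx4, Sod1, Sod2 and Cat, and in 33.8% of all 32851 promoter windows. Txndc8 held 2 and Cat held 4, so that the motif was present both in the gene that rose most and in the one that fell. TGACG, which is contained in the cyclic AMP response element TGACGTCA, was found for Gpx4, Prdx4 and Sod1 and in 17.8% of all windows, and the full element in none of the members and 1.55% of all windows. The core of the antioxidant response element, TGACNNNGC, which can overlap TGACG, was found for Txndc2 and Sod1 and in 10.2% of all windows. The TGACG matches of Gpx4 and Prdx4, the CCAAT match of Prdx4 and the TGACNNNGC match of Txndc2 all lie in windows inside the gene span. These are matches of letters and do not show binding. A member was counted if any of its windows held a motif, and Gpx4 and Txndc2 had several windows. The shares are of single windows, so the counts and the shares are not like for like.

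The levels of each gene were also put in order over the 4 groups. This needed steps between unlike groups, for which 54% (wild type spermatids against knockout spermatocytes) and 62.4% (knockout spermatids against wild type spermatocytes) of all probe sets were called. Txndc2 and Txndc8 ran upward from wild type spermatocytes over knockout spermatocytes and wild type spermatids to knockout spermatids, and for both genes the last of these steps was not called. Prdx4 had the same order, in which the step from wild type to knockout spermatocytes was not called. For Gsr the step between the spermatocyte groups was not called, with called steps to wild type spermatids and on to knockout spermatids. For Gpx4, Sod1 and Cat only the step between the stages was called, and for Txnrd3 and Sod2 no step between neighbouring groups was called.

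Hr6b knockout spermatocytes held more Txndc2 and Txndc8 RNA than wild type spermatocytes, and no other of the 9 genes was called, in a comparison that called 1.59% of all probe sets. The 9 genes had a median log2 difference of 0.09, against -0.01 over all probe sets. In the levels given above, both knockout arrays exceeded both wild type arrays, and the log2 difference was 1.32 for Txndc2 (SE 0.20, 2.49-fold, adjusted p = 0.0122 from limma) and 1.40 for Txndc8 (SE 0.20, 2.63-fold, adjusted p = 0.00847). Both calls were lost without replicate 1 of the knockout spermatocytes (1.11, adjusted p = 0.153, and 1.30, adjusted p = 0.113) and in a fit of only the 4 spermatocyte arrays (adjusted p = 0.102 and 0.0923). In bulk samples such as these, more cells of a type and more RNA per cell cannot be told apart. Round spermatid markers called higher in the same arrays were led by Tnp2 (log2 difference 2.42), Prm2 (2.32), Cabs1 (2.30), Tnp1 (2.20) and Prm1 (1.91). Below these came Akap4 (1.88), Tssk6 (1.83), Gapdhs (1.80) and Odf1 (1.65). Acrv1 (0.87), Catsper3 (0.76), Spaca1 (0.51), Izumo1 (0.34), Tekt1 (0.16) and Acr (-0.08) were not called. The part of spermatid RNA in the difference of Txndc2 and Txndc8 was not tested.

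Prdx4 had higher signals on both knockout than on both wild type spermatocyte arrays, with a log2 difference of 0.71 (SE 0.15, 95% confidence interval 0.37 to 1.04) that narrowly missed the threshold (adjusted p = 0.0521 from limma). The other probe sets that were bright in spermatids gave 0.39 and 0.22 (adjusted p = 0.194 and 0.616), at signals below 100 on all spermatocyte arrays. The difference passed with equal medians (adjusted p = 0.0415), with dim probe sets left out (adjusted p = 0.0402) and without replicate 2 of the wild type spermatocytes (0.86, adjusted p = 0.0467). The arrays of the 2 genotypes overlapped for Txnrd3, Gpx4, Sod1, Gsr and Cat. The log2 difference was -0.04 for Txnrd3 (95% confidence interval -0.30 to 0.21), 0.06 for Gpx4 (-0.18 to 0.30), -0.19 for Sod1 (-0.51 to 0.12), 0.09 for Sod2 (-0.15 to 0.33), -0.15 for Gsr (-0.45 to 0.16) and 0.12 for Cat (-0.30 to 0.54). For Sod2 both knockout arrays exceeded both wild type arrays.

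In knockout spermatids, Prdx4 and Gsr were higher than in wild type, and none of the 9 lead probe sets was called lower, while 14.5% of all probe sets were called (4.83% higher and 9.63% lower). The median log2 difference of the 9 genes was 0.11, against 0.02 over all probe sets. Prdx4, at 5978 and 5225 in wild type and 8946 and 10760 in the knockout, differed by 0.81 (SE 0.15, 1.76-fold, adjusted p = 0.00661 from limma), and the difference was not called without replicate 2 of the wild type spermatids (0.71, adjusted p = 0.0528). Gsr, at 175 and 168 in wild type and 341 and 348 in the knockout, differed by 1.01 (SE 0.14, 2.01-fold, adjusted p = 0.00159). For both genes the groups stood well apart. The Gsr call held in every fit without 1 array.

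The sperm thioredoxins and their reductase were not called between the genotypes in spermatids. Txndc2 had higher signals on both knockout arrays, with a log2 difference of 0.50 (SE 0.20, adjusted p = 0.142 from limma). The Txndc2 difference passed the threshold after cyclic loess normalization (0.74, adjusted p = 0.0435) and with equal medians (0.71, adjusted p = 0.0351). On the deposited values it also passed in a fit of only the 4 spermatid arrays. The knockout and wild type arrays overlapped for Txndc8, at 0.11 (95% confidence interval -0.34 to 0.56). Txnrd3 was lower on both knockout arrays, by -0.26 (SE 0.11, adjusted p = 0.170), and -0.05 with equal medians. Gpx4 differed by 0.05 (95% confidence interval -0.19 to 0.29). The median of the expressed autosomal probe sets was lower in knockout than in wild type spermatids by a log2 difference of -0.21, and equal medians add that amount to each value here.

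The dismutases and catalase were not called on their lead probe sets in spermatids. Sod1 was higher on both knockout arrays by 0.37 (SE 0.14, adjusted p = 0.117 from limma) and passed after cyclic loess normalization (0.60, adjusted p = 0.0252) and with equal medians (0.58, adjusted p = 0.0199). Sod2 was lower on both knockout arrays by -0.31 (SE 0.11, adjusted p = 0.0927), and passed where dim probe sets were left out (adjusted p = 0.0397). The wild type range of Cat, 25.4 to 28.2, lay within the knockout range. Sertoli cell markers were higher in the knockout spermatids (5 of 18 called, median 0.53), against 4.83% of all probe sets called higher, with summed signals given above. Of 10 macrophage markers 2 were higher, with summed signals of 657 to 663 in wild type and 914 to 915 in the knockout, and 7 of them were below 100 on all arrays. Of 10 peritubular and endothelial markers 1 was higher (782 to 794 against 787 to 891 summed), as was 1 of 4 erythroid markers (161 to 162 against 179 to 188), and none of 8 Leydig cell markers was called. Of 15 markers of spermatogonia and early spermatocytes, 2 were higher in knockout spermatids (1810.0 to 1843 against 1712 to 1847). In knockout spermatocytes 2 of them were lower (5336 to 5436 against 5319 to 5629), against 0.413% of all probe sets. The part of such cells in the Prdx4 and Gsr differences was not tested.

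**Figure D3:**
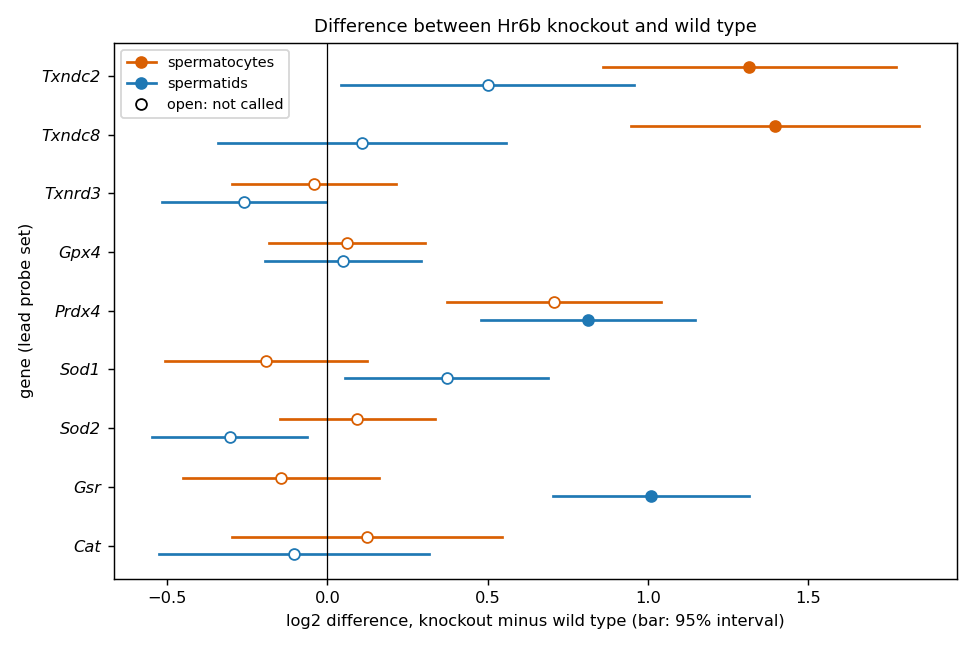
Log2 difference, knockout minus wild type, of the lead probe set of each gene in spermatocytes and in spermatids, with 95% confidence intervals from limma. Filled points were called, which are Txndc2 and Txndc8 in spermatocytes and Prdx4 and Gsr in spermatids.

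Whether the genotype effect itself differed between the stages was tested by the difference of the 2 effects, spermatids minus spermatocytes. It was called for 2 of the 9 genes, among 4.6% of all probe sets. For Txndc8 the effect was 1.40 in spermatocytes and 0.11 in spermatids, a difference of -1.29 (SE 0.28, adjusted p = 0.0365 from limma). For Gsr it was -0.15 and 1.01, a difference of 1.15 (SE 0.19, adjusted p = 0.0154). The Txndc8 difference was not called under any of the 3 other scalings (adjusted p = 0.0561 to 0.0942), and with 1 array left out it was called only without either wild type spermatocyte array. The Gsr difference was called under those scalings but not without replicate 1 of the knockout spermatocytes (adjusted p = 0.0754), replicate 1 of the knockout spermatids (0.0592) or either wild type spermatid array (0.0552 and 0.0541). Txndc2 had a difference of the same sign as Txndc8, -0.82 (adjusted p = 0.134). For Prdx4 the effects of 0.71 and 0.81 differed by 0.10 (95% confidence interval -0.37 to 0.58), which was not called.

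Probe sets of the same gene did not always move together. The difference is clearest in Sod1, for which the lead probe set and 1451124_at gave stage differences of 1.44 and 1.54 in wild type, whereas 1435304_at fell by 1.14 (adjusted p = 4.07e-05 from limma), from signals of 2241 and 2126 to 1073 and 912. In knockout spermatids 1435304_at had 576 and 711, lower than in wild type by a log2 difference of -0.63 (adjusted p = 0.0143), and 1440222_at fell from 180.3 and 179 to 98.5 and 119.5, by 0.73 (adjusted p = 0.0350). Both therefore moved against the lead probe set in the same arrays, where the lead itself was not called (0.37, adjusted p = 0.117). Between the stages in wild type, however, 1440222_at rose with the lead, by 1.84 (adjusted p = 1.56e-05). The dim 1447761_x_at, at signals of 7.33 to 11.0, rose there by 0.48 (adjusted p = 0.0130). Only 1435304_at fell between the stages, while the knockout difference of Sod1 in spermatids has no single direction on this array. The place of each probe set in the transcript was not examined.

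For Gsr, the second probe set, 1421817_at, lay between 36.5 and 49.6 on all arrays and showed neither the stage difference (-0.08, adjusted p = 0.635 from limma) nor the knockout difference in spermatids (0.03, adjusted p = 0.931). The Gsr calls thus rest on 1 probe set. For Prdx4, 3 of the 4 probe sets were higher in knockout spermatids (0.81, 0.98 and 0.74), and the other had signals of 9.11 to 12.2. For Sod2, 1448610_a_at followed the lead probe set, with -0.32 in knockout spermatids (adjusted p = 0.0992), while 1454976_at, with signals between 16.4 and 47.9, fell by 1.10 between the stages in wild type. The dim 1417194_at, at 46.9 to 72.3, had 0.31 in knockout spermatids (adjusted p = 0.187). Its stage difference in wild type was -0.36 (adjusted p = 0.0554), so both values had the sign opposite to the lead. The second Cat probe set, 1416429_a_at, fell by 1.39 between the stages. The 3 Txnrd3 and 2 Gpx4 probe sets each moved alike.

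**Figure D4:**
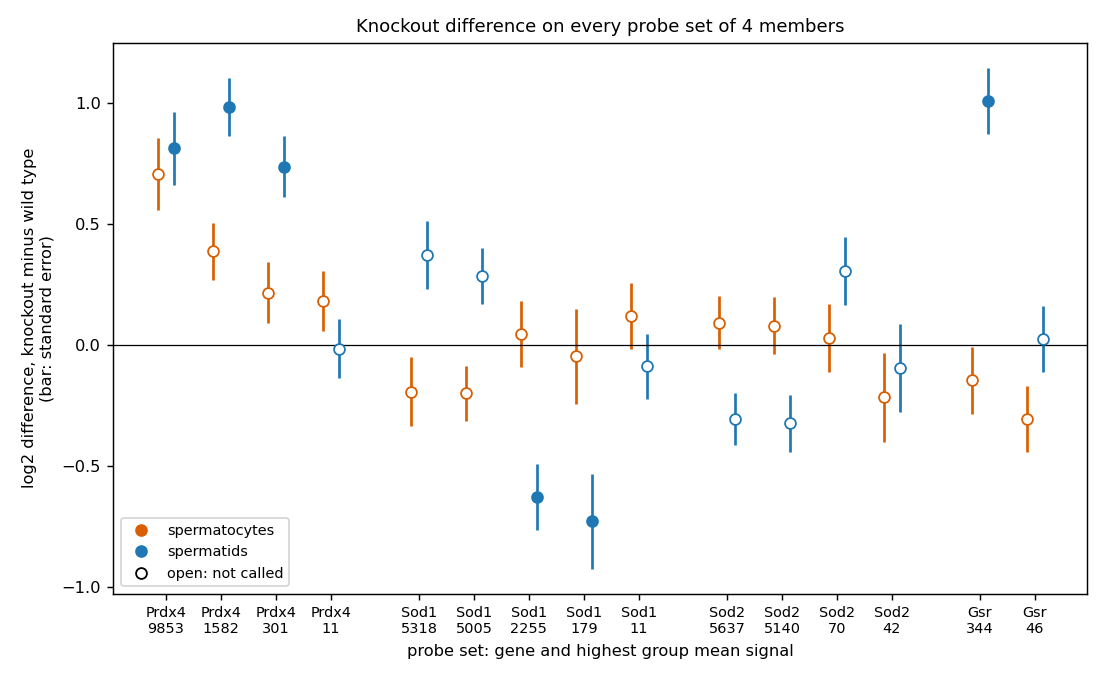
Knockout minus wild type log2 difference (bars are standard errors) of each probe set of Prdx4, Sod1, Sod2 and Gsr in spermatocytes and spermatids, ordered within a gene from bright to dim and labelled with the highest group mean signal; open points were not called. In spermatids the Sod1 probe sets lie on both sides of 0, and the second Gsr probe set lies near 0 at 0.03 while the lead is at 1.01.

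The genes whose patterns over the 8 arrays were most like those of the sperm thioredoxins were taken by the Euclidean distance of log2 values centred on each probe set's own mean. There were 12641 candidate probe sets, and the nearest of each gene was kept. For Txndc2 these were Atp1a4, the sodium pump subunit of sperm, at a distance of 0.21, Asb9 at 0.22 and Tmem247 at 0.23. For Txndc8 they were Stat4, a transcription factor gene, and Nt5c1b, a nucleotidase gene, both at 0.20, and Armc12 at 0.22. For Txnrd3 the nearest was Igdcc3 at 0.83, a poor match that follows from the rule, since candidates had to vary by an SD of at least 0.5 and Txnrd3 itself varied by 0.20.

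The rest of the redox system was described by 109 other genes in 5 lists, of which 103 were measured. Each gene stands here and below by its brightest probe set, whereas the shares of all probe sets include many dim ones. The 2 kinds of share are therefore not like for like, and a higher share in a list was not tested. In wild type spermatids 29 were higher and 46 lower than in spermatocytes, in all 72.8% against 53.3% of all probe sets (26% higher and 27.3% lower), with a median of -0.19 against 0.10 over all probe sets. There were 33 higher and 44 lower after quantile and 34 and 43 after cyclic loess normalization, but the split turned with 1 scaling: with equal medians of the expressed autosomal probe sets 47 were higher and 36 lower, with a median of 0.18, while 27595 of the 36945 called among all probe sets were then higher, against 11720 of 24016. In the thioredoxin and glutaredoxin list, 4 of 17 were higher, among them Nme8, a thioredoxin domain protein of the sperm tail (3.12), and Glrx2 (2.27), and 8 were lower, among them Txnip, an inhibitor of thioredoxin (-2.48), and the iron-sulfur glutaredoxins Glrx3 (-2.25) and Glrx5 (-2.18). Of 16 other peroxidases and related genes, 5 were higher, including Gpx6 (5.24), Srxn1, which repairs overoxidized peroxiredoxins (4.40), and Ccs, the copper chaperone of SOD1 (0.98), and 7 were lower, including Gpx1 (-1.64), Msra (-1.43) and Prdx2 (-1.14).

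Among 28 genes of glutathione synthesis, transfer and NADPH supply, 12 were higher and 11 lower in wild type spermatids, 82.1% of the list against the 53.3% of all probe sets. G6pd2, the retrogene of the first enzyme of the pentose phosphate pathway, rose by 5.30 while Pgd, the next dehydrogenase of the pathway, fell by 3.41. Gclc, the catalytic subunit of the first step of glutathione synthesis, fell by 3.20, and Gss, the second step, rose by 1.46. Of 21 selenoprotein genes and factors, 4 were higher, led by Selenov (4.91), and 12 were lower (76.2% called in all), led by Sepsecs, the enzyme that makes selenocysteine on its transfer RNA (-3.40). Of 21 genes of NRF2 regulation and stress response 57.1% were called, near the share of all probe sets, and 4 were higher, including Nqo2 (3.97) and Nfe2l2, which encodes NRF2 (3.76), and 8 were lower, including Sesn1 (-2.27) and Sesn3 (-2.12).

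In knockout spermatocytes, 3 of the 103 were higher and 3 lower, which is 5.83% against 1.59% of all probe sets. Only 0 and 2 in all were called without replicates 1 and 2 of the knockout spermatocytes, 3 and 2 without those of wild type, and 3 without either wild type spermatid array. None of the 17 thioredoxin and glutaredoxin genes was called in the fit of all arrays. The higher genes were Nqo2 (1.00, adjusted p = 0.0444 from limma), whose call was lost after quantile normalization, Gpx6 (0.82, adjusted p = 0.0197) and the methionine sulfoxide reductase Msrb2 (0.77, adjusted p = 0.0159). The lower genes were Selenop, a selenium carrier of the plasma (-0.98, adjusted p = 0.0302), Bach1, a repressor of NRF2 targets (-0.67, adjusted p = 0.0254), and Glo1, which detoxifies methylglyoxal with glutathione (-0.66, adjusted p = 0.0366).

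In knockout spermatids, 9 of the 103 were higher and 18 lower, which is 26.2% against 14.5% of all probe sets. The split was 13 and 11 after quantile and 13 and 9 after cyclic loess normalization, and 25 and 10 with equal medians, where 8472 of 10733 called probe sets were higher, against 2175 of 6514. In all, 8 genes were called without replicate 1 of the knockout spermatids, and 12 and 13 without replicates 1 and 2 of the wild type spermatids. In the thioredoxin and glutaredoxin list 1 of 17 was higher, the mitochondrial glutaredoxin Glrx2 (0.78), and 4 were lower, among them Pdia3 (-0.91), a disulfide isomerase, Tmx1 (-0.81) and Ero1a (-0.60). Of 16 other peroxidases and related genes, Srxn1 (0.58) was higher and Msrb3 (-1.07) lower. Of 28 genes of glutathione synthesis, transfer and NADPH supply, 5 were higher, including Gsta4 (0.77), and 5 were lower, including Idh1 (-1.15), which makes NADPH in the cytosol, the mitochondrial transhydrogenase Nnt (-0.93) and Glo1 (-0.85), and the median over the list was 0.02. Of 21 selenoprotein genes and factors 1 was higher, Selenok (0.92), and 5 were lower, including Selenop (-0.89), Selenof (-0.70) and Sepsecs (-0.61), of which Sepsecs was not called after cyclic loess or with equal medians. Of 21 genes of NRF2 regulation and stress response 1 was higher, Nqo2 (1.11), and 3 were lower, Sesn3 (-0.61), Nfe2l1 (-0.50) and Keap1 (-0.40), whose calls were lost under all 3 other scalings. The difference of the genotype effects was called for Selenok (0.91), Selenof (-0.83) and Secisbp2 (-0.79), the last 2 of which were not called under any other scaling. None of the 3 was called in all fits without 1 array.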

How the data were processed

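Per the labels and the study's methods, total RNA of late spermatocytes and round spermatids of both genotypes was extracted with Trizol and hybridized to Affymetrix Mouse Genome 430 2.0 arrays. The authors background-corrected, normalized and summarized the probe intensities with RMA and deposited log2 expression values per probe set. Versions of the authors' tools are not given in the sources used here. The 64 control probe sets were left out. Of the 45037 others, 34945 named 1 gene, 932 several and 9160 none in the platform annotation, whose symbols were checked against current ones through their gene identifiers for 34741 probe sets.

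The deposited log2 values were used as they were. A mean for each of the 4 groups was fitted to all 8 arrays with limma 3.58.1 in R 4.3.3, as 4 residual and 5.85 prior degrees of freedom, and the Benjamini-Hochberg adjustment covered all 45037 probe sets. A probe set was called at an adjusted p under 0.05. A gene was represented by its lead probe set, the one with the highest mean log2 value over the arrays among those that name the gene alone. Other probe sets of the members were described beside it. Shares over all probe sets also cover dim probe sets and are no like-for-like baseline for lead probe sets. Levels of different probe sets were not tested against each other, and the rankings and sums of signals given above are descriptions. Fitting code was tested on simulated data. Precision is limited by the number of arrays: an exact permutation test of 2 arrays against 2 gives no p under 0.333.

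All members were named. Of the other redox genes, up to 4 called genes with the largest absolute log2 difference were named per list in each genotype comparison, and up to 3 in each direction in the stage comparison, together with genes called for the difference of effects. The members, the gene lists and the tests were chosen with earlier results of these data known. Alternatives were the replicate number as a block, a separate fit of each comparison's arrays, quantile and cyclic loess normalization, equal medians of expressed autosomal probe sets (signal of 100 or more on at least 4 arrays), a filter at that signal, other rules for the probe set, and leaving out each array. Replicate numbers were not taken to pair arrays.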

Additional observations from a re-analysis of the deposited data

Results flagged for a closer look

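The genotype effect differed between the stages for 2 of the 9 genes by the test of the difference itself in limma, which called 4.6% of all probe sets. For Txndc8 the difference, spermatids minus spermatocytes, was -1.29 (adjusted p = 0.0365), and it was not called under the 3 other scalings (adjusted p = 0.0561 to 0.0942). For Gsr it was 1.15 (adjusted p = 0.0154), and it was not called in 4 of the 8 fits without 1 array (adjusted p = 0.0541 to 0.0754). Groups of 2 arrays are too small for a test of single outlying arrays.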

How the results depend on the processing

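Of 661 alternative values for the 9 genes, 619 kept their side of the threshold, 17 gained a call and 22 lost one. Another 3 changed sign with a call before or after the change. Changes of sign between values that were both not called were not counted apart and fall among the 619. Those 3 were all for the Sod2 stage difference. In wild type it changed with the mean over the Sod2 probe sets (-0.33, adjusted p = 0.0343 from limma, against 0.08). In the knockout it changed after cyclic loess (0.13) and with equal medians (0.29, against -0.32). The cause was not tested. With each array left out in turn, the genes called numbered 0 to 3 for knockout spermatocytes, 1 to 3 for knockout spermatids, 0 to 3 for the difference of effects and 7 to 8 between the stages, and for the other redox genes 0 to 4, 8 to 29, 0 to 6 and 66 to 75 (wild type stages). With the 4 spermatocyte arrays fitted alone, 0 of the 9 genes and 0 of the other redox genes were called between genotypes, where fewer residual degrees of freedom are left. In knockout spermatids 4 of the 9 genes were called after cyclic loess and 4 with equal medians, and the difference of effects was called for 1 after quantile and 1 after cyclic loess normalization. For the other redox genes that difference was called for 9 with equal medians, 8 with dim probe sets left out and 6 with any probe set of a gene, against 3.

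Correlations of same-numbered deviations between groups ran from -0.13 to 0.14. Whether arrays of different groups share a preparation was not tested. With the replicate block 2, 2, 2, 8 and 8 of the 9 genes were called in knockout spermatocytes, knockout spermatids, the difference of effects and the stages in wild type and knockout, and 5, 26, 3 and 75 of the other redox genes (6, 27, 3 and 75 without it). Pairing the arrays crosswise, chosen after seeing the data, gave 3, 2, 2, 8 and 8. With 2 arrays a group, a missing call does not show that levels are equal, and Cat and the spermatocyte values of Gsr rest on signals below 100.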
